A study of Homo sapiens with 6 samples.

Results

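The primary cilium is a single antenna-like projection that most vertebrate cells can build when they are not dividing. Its axoneme is assembled by intraflagellar transport (IFT), in which the motor kinesin-2 carries trains of IFT-B and IFT-A complexes to the tip and dynein-2 brings them back. The BBSome, a coat complex named for Bardet-Biedl syndrome, rides on these trains and exports membrane receptors, and the transition zone at the ciliary base acts as a gate. In vertebrates the Hedgehog receptor, transducer and GLI factors pass through this organelle, and the series title names Hedgehog signalling in heated keratinocytes. The genes described here are a list of 39 that encode IFT-B, IFT-A, the BBSome and its helpers, the 2 motors, the EVC complex, the transition zone and the distal appendages. They were found by gene symbol among 15379 rows of the deposited count table, and 38 had a row. EVC2 was not analysed here.

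The cells were HaCaT, an immortalised human keratinocyte line, and the labels name no transgene, edit or drug. The 37C group was exposed to 37C and the 41C group to 41C, each for 1 hour per day on 3 days, with 3 libraries per group. Whether the 3 libraries of a group came from separate cultures is not stated, so the spread that every p-value rests on may be technical. The labels give neither confluence nor serum nor the time after the last exposure, and cilia were not counted in these data. In bulk RNA, fewer ciliated cells and less RNA per cell cannot be told apart.

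Library totals ran from 19659112 to 20856144 counts, and the 38 genes together had 18647 to 20345 counts per library. The keratinocyte identity of the line was plain in its markers, with KRT5 at 1402 and KRT14 at 926 FPKM (fragments scaled to gene length and library total) on average over the 6 libraries. Genes of cells with many motile cilia were mixed. FOXJ1, their master regulator, had 8 counts over the 37C libraries and 6 over the 41C libraries, and the axonemal dynein gene DNAI1 had 1 and 0. CCNO, a cyclin-like factor of the same programme, had 393 and 325 counts (4.38 FPKM), the regulator MCIDAS 189 and 144 (0.951 FPKM) and the dynein heavy chain gene DNAH5 302 and 345 (0.267 FPKM). The summed level of the 15 motile-cilium genes with a row was 18.1 to 21.2 CPM at 37C and 17.6 to 17.9 at 41C. CPM are counts scaled to library size (counts per 1e+06) with TMM factors. Keratinocyte markers stood higher in the 41C libraries, with a sum over 12 genes of 7383 to 8056 CPM at 37C and 8549 to 8921 at 41C. Of the 12, 5 rose with an adjusted p under 0.05 in edgeR, against 0.821% of all tested genes. Summed markers of melanocytes were at 4.91 to 5.06 CPM at 37C and 5.09 to 6.21 at 41C, and those of fibroblasts, immune cells and endothelial cells overlapped between the groups. The part of these shifts in the values below was not tested.

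Genes of the cilium are known targets of RFX transcription factors, which bind an inverted repeat called the X-box. RefSeq start-site sequences (GRCh38.p14, 250 bases before to 50 bases after the start) were matched for 36 of the 39 genes. Both a single arm and a pair of arms were searched on both strands. The single arm GTTGCCA was found in 9 of the 36 (25.0%), against 4.13% of 27305 promoters of the same length and 3.88% of the 12210 promoters of genes in the count table. The pair of arms, GTNNCC and GGNAAC with 2 bases between them, was found in 2 of the 36 (5.56%), against 1.46% of all promoters. The match of the pair in ARL6 overlaps the single arm there. Pairs with another gap were not searched. The IFT122 line below holds both arms with a wider gap and was counted only as a single arm. Of the 9 single arms, 8 lay within 40 bases of the start. The 9-base GLI motif GACCACCCA was in 0 of the 36 and in 0.249% of all promoters, which says only that these letters are not in those windows. Most of the 36 had neither form, and the sites are shown because the search did not enter the choice of the genes. Each line runs 5′ to 3′ on the strand of the gene, with the match in capitals, and the pair of arms comes first.
ARL6, chr3:97764726-97764755, plus strand: aagctcctGTTGCCAAGGGAACggtgcctg
IFT57, chr3:108222433-108222462, minus strand: ggagtctaGTTTCCCTGGTGACggattgtc
IFT122, chr3:129440204-129440226, plus strand: gcatgtacGTTGCCAggggtaac
IFT81, chr12:110124349-110124371, plus strand: tagcaaccGTTGCCAaggagctc
IFT88, chr13:20567164-20567186, plus strand: tccgcgctTGGCAACggctcggc
MKS1, chr17:58219275-58219297, minus strand: gcgtctccGTTGCCAggaaaaca
DYNC2LI1, chr2:43774022-43774044, plus strand: cgctcccaTGGCAACccagaagg
BBS1, DYNC2H1 and IFT46 also had the single arm. A match describes letters in a window and does not show that a factor binds there.

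All 38 genes were expressed, at low to moderate levels. Mean FPKM over the 6 libraries ran from 0.849 for WDR35 to 23.4 for KIF3B, with a median of 4.20, against a median of 8.05 over the 12056 genes tested. Of the 38, 7 lay above 10 FPKM, 30 between 1 and 10, and 1 below 1. The smallest count of any of them in a library was 60 and the largest was 3028, so all 38 passed the filter on low counts.

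**Figure D1:**
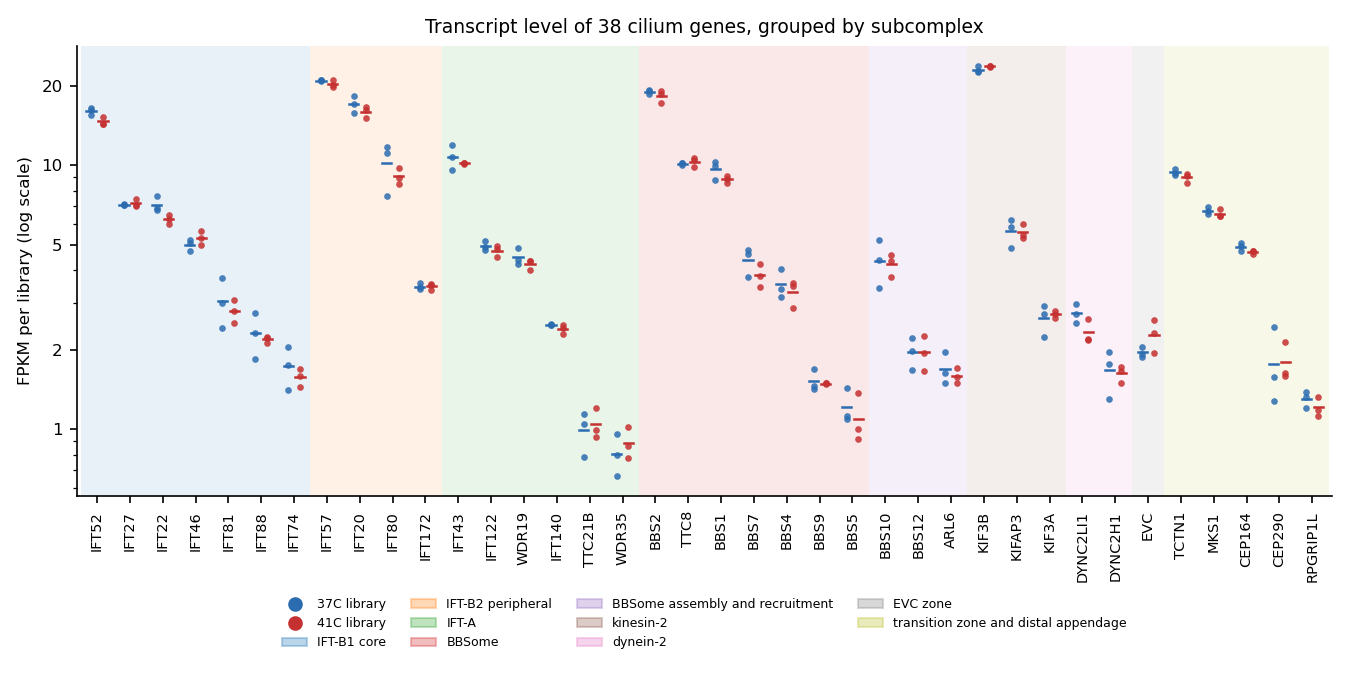
FPKM (log axis) of the 38 cilium genes in each of the 6 libraries, ordered by level within each subcomplex; points are libraries, short bars are means of 3, blue is 37C and red is 41C. KIF3B, IFT57 and BBS2 are at the top and WDR35 and TTC21B at the bottom, and blue and red points lie side by side for nearly all genes, with the widest blue spread in CEP290.

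No cilium gene passed the test at 41C. With edgeR's quasi-likelihood test and adjustment over 12056 genes, 0 of 38 were higher and 0 lower at an adjusted p under 0.05, where 0.821% of all tested genes were higher and 0.265% lower. At an unadjusted p under 0.05, 1 gene was higher (EVC) and 1 lower (IFT22), against 7.58% and 6.12% of all genes. DESeq2 gave an adjusted p for 1 of the 38 and called 0. Without its independent filtering, which was tried after the data had been seen, it also called 0, with 1 gene at an unadjusted p under 0.05. The 1 call that came with a library left out was IFT80, lower without 37C replicate 3 (log2 change -0.31, edgeR adjusted p = 0.00384). That fit called 322 of all 12154 genes it tested lower and 483 higher. In it, 6 of the 38 had the opposite sign to the fit on all libraries. The other fits with a library left out called 0 of 38.

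The test also bounds these changes, but only against the spread between libraries, which may be technical. In 37 of the 38 the 95% interval of the change lay within 1.5-fold in either direction, as in 10412 of all 12056 tested genes. It lay within 1.3-fold in 29 of the 38 and within 1.2-fold in 16. The 1 of the 38 that passed 1.5-fold was CEP290, with an interval of -0.57 to 0.66 on the log2 scale. The median log2 change was -0.04, against 0.00 for all tested genes, and 26 of 38 (68.4%) were negative, against 49.1% of all genes. The groups failed to overlap in 1 gene with 41C above (KIF3B) and in 2 with 41C below (IFT22 and IFT52), against 11.2% and 8.84% of all genes. The summed level of the 38 genes was 1006, 1010 and 944 CPM in 37C replicates 1, 2 and 3 and 977, 979 and 963 CPM in 41C replicates 1, 2 and 3. The 41C sums lay inside the 37C range.

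**Figure D2:**
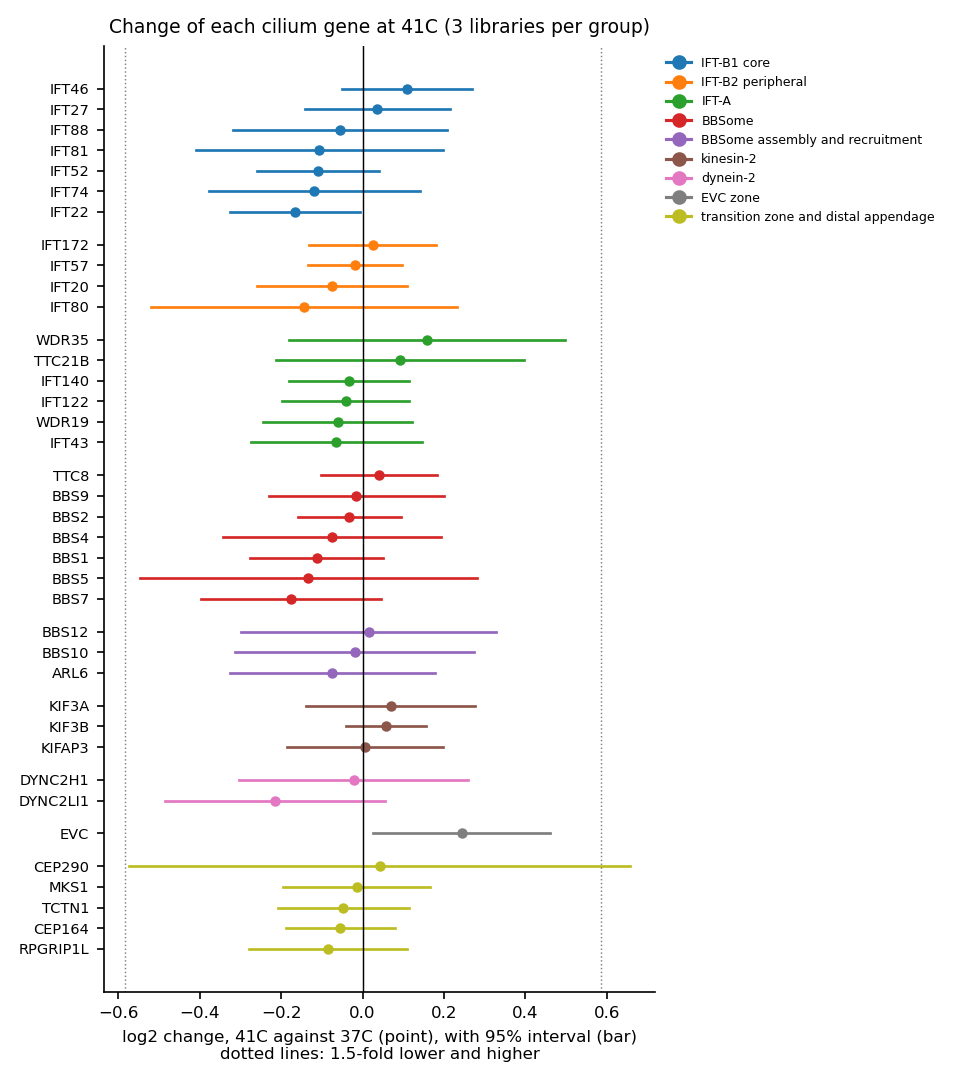
Log2 change at 41C against 37C (point) with its 95% interval (bar) for the 38 cilium genes, coloured by subcomplex, from the edgeR fit on 3 libraries per group; dotted lines mark 1.5-fold. Only the intervals of EVC (above) and IFT22 (below) leave out 0, before any adjustment for the number of genes tested, and only that of CEP290 passes a dotted line.

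IFT-B is the larger of the transport complexes and is needed to build the cilium. Its core, IFT-B1, is represented by 7 genes, of which 0 passed, with 2 positive and 5 negative log2 changes and a median of -0.11. IFT22 encodes a Rab-like GTPase subunit and lies on chromosome 7 (101313367 to 101321823, minus strand, GRCh38). It had 33.1, 37.8 and 34.2 CPM in 37C replicates 1, 2 and 3 and 31.1, 29.8 and 32.8 in 41C replicates 1, 2 and 3. Its 3 libraries at 41C lay below the 3 at 37C by a small margin, and the fold was 0.891 (log2 change -0.17 ± 0.08 SE; edgeR adjusted p = 0.342). IFT46, which docks outer dynein arms as cargo, pointed the other way without passing. It had 28.6, 28.1 and 26.3 CPM at 37C and 31.6, 29.8 and 28.2 at 41C, groups that overlapped (log2 change 0.11 ± 0.08; edgeR adjusted p = 0.572). IFT52, a scaffold subunit, was at 30.9 ± 0.861 CPM at 37C and 28.6 ± 1.04 at 41C (SD, n = 3) and did not pass.

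IFT74 and IFT81 form the tubulin-binding pair of the IFT-B1 core, and the proportion of their messages varied little. The ratio of IFT81 to IFT74 in FPKM was 1.84, 1.71 and 1.72 at 37C and 1.76, 1.82 and 1.74 at 41C. Some other pairs varied more over the 6 libraries. The ratio of IFT52 to IFT88 was 6.92 ± 0.990 (SD). That of DYNC2LI1 to DYNC2H1 was 1.56 ± 0.282 and that of BBS2 to BBS7 was 4.59 ± 0.476. Whether a steady ratio reflects shared control, or the GC content described below, was not tested. IFT74 and IFT81, and IFT88 with them, were spread widely at 37C. IFT88, whose mutation in mice is a classical way to remove cilia, had 15.5, 13.1 and 10.5 CPM at 37C and 12.7, 12.1 and 12.7 at 41C. Its 41C values sat within the 37C range, with a coefficient of variation of 19.1% at 37C and 2.76% at 41C. Among the 38 genes, 22 (57.9%) had the larger coefficient of variation at 37C, as had 62.7% of all tested genes. IFT74 and IFT81 had log2 changes of -0.12 ± 0.12 and -0.11 ± 0.14, and IFT27, a Rab-like GTPase that joins IFT25, one of 0.04 ± 0.08. Levels within the core ran from 1.66 FPKM for IFT74 to 15.4 for IFT52. The median of the core was 0.02 without 37C replicate 1, in place of -0.11.

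The outer part of IFT-B, IFT-B2, includes the contacts to kinesin-2, and 0 of its 4 genes passed, with a median log2 change of -0.05. IFT57, the second most abundant message of the 38 at 20.7 FPKM, hardly varied at all. It had 63.4, 63.8 and 63.7 CPM at 37C and 64.6, 62.2 and 61.7 at 41C. Its log2 change of -0.02 had an interval of -0.13 to 0.10. IFT80, mutated in a skeletal ciliopathy, was the opposite case. It had 51.9, 49.6 and 34.4 CPM at 37C and 38.2, 40.3 and 44.5 at 41C. The third 37C library was below every other library, the other two 37C libraries were above every 41C library, and over all 6 libraries the log2 change was -0.14 ± 0.16 (edgeR adjusted p = 0.762). IFT20, the subunit that also resides at the Golgi, and IFT172, a large subunit that works in the turnaround at the ciliary tip, had log2 changes of -0.08 ± 0.09 and 0.02 ± 0.07.

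IFT-A directs return transport and the entry of membrane proteins. Of its 6 genes 0 passed, 2 were positive and 4 negative, and the median was -0.04. The core genes IFT122 and IFT140 had a ratio of 1.99 ± 0.0471 in FPKM over the 6 libraries (SD). WDR35 was the least abundant of the 38, at 0.849 FPKM. It had 6.58, 5.51 and 4.61 CPM at 37C and 6.0, 7.13 and 5.49 at 41C, overlapping groups with a log2 change of 0.16 ± 0.16 (edgeR adjusted p = 0.728). TTC21B, which encodes the IFT-A subunit known as IFT139, had 20.8, 19.2 and 14.5 CPM at 37C and 17.2, 22.3 and 18.5 at 41C. The highest and the lowest of its 6 values were the second 41C and the third 37C library, with the others mixed between (log2 change 0.09 ± 0.14; edgeR adjusted p = 0.832). IFT43 and WDR19, the remaining IFT-A genes, had log2 changes of -0.06 ± 0.10 and -0.06 ± 0.09.

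Of 7 BBSome genes 0 passed, 1 was positive and 6 were negative, with a median log2 change of -0.08. BBS2, at 18.7 FPKM the most abundant, belongs to the first subunits to assemble. It had 55.4, 54.0 and 55.7 CPM at 37C and 55.8, 54.4 and 51.1 at 41C. The interval of its change was -0.16 to 0.09 on the log2 scale. BBS7, its partner in assembly, had 19.7, 20.4 and 16.3 CPM at 37C and 18.2, 16.5 and 15.1 at 41C. The groups overlapped through the third 37C library, and the change was -0.18 ± 0.10 (edgeR adjusted p = 0.481). BBS5, which binds phosphoinositides, was the least abundant BBSome gene, at 1.16 FPKM. It had 4.47, 3.44 and 3.55 CPM at 37C and 3.17, 2.91 and 4.38 at 41C, with the third 41C library close to the highest 37C one (log2 change -0.13 ± 0.20; edgeR adjusted p = 0.827).

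The remaining BBSome genes were BBS1, BBS4, BBS9 and TTC8, with log2 changes of -0.11 ± 0.08, -0.08 ± 0.13, -0.02 ± 0.10 and 0.04 ± 0.07. Their proteins join in 1 complex, yet levels ran from 1.16 FPKM for BBS5 to 18.7 for BBS2. BBS10 and BBS12 encode chaperonin-like proteins that help assemble the BBSome, and ARL6 is the GTPase that recruits it to membranes. Of these 3 genes 0 passed, and BBS10 and BBS12 had log2 changes of -0.02 ± 0.14 and 0.01 ± 0.15. ARL6 had 10.2, 12.3 and 9.52 CPM at 37C and 9.98, 10.8 and 9.62 at 41C. Its 41C values lay inside the 37C range (log2 change -0.07 ± 0.12; edgeR adjusted p = 0.844).

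Kinesin-2 is a trimer of the motor subunits KIF3A and KIF3B with the adaptor KIFAP3, and it also works outside cilia. The 3 genes had log2 changes of 0.07, 0.06 and 0.01 and 0 passed. KIFAP3 had no settled sign: it turned with upper-quartile scaling (-0.01) and ran from -0.08 to 0.08 over 20 alternatives. KIF3B, the most abundant of the 38 at 23.4 FPKM, had 137.5, 144.8 and 138.3 CPM at 37C and 145.3, 146.2 and 146.4 at 41C. All 41C libraries were above all 37C libraries, the second 37C library by a narrow gap, and the change was 0.06 ± 0.05 (fold 1.04, edgeR adjusted p = 0.630). KIF3A had 21.0, 19.7 and 16.2 CPM at 37C and 19.8, 19.2 and 20.7 at 41C, with groups that overlapped (edgeR adjusted p = 0.818). KIF3B exceeded KIF3A 8.85 ± 1.18 times in FPKM at 37C and 8.69 ± 0.305 times at 41C (SD, n = 3). It exceeded KIFAP3 4.13 ± 0.447 times at 37C and 4.26 ± 0.275 times at 41C. The median of the 3 genes was -0.03 without 37C replicate 3.

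Dynein-2, the return motor, is represented by its heavy chain DYNC2H1 and its light intermediate chain DYNC2LI1. DYNC2LI1 had the lowest log2 change of the 38, with 8.99, 7.64 and 8.31 CPM at 37C and 6.72, 8.01 and 6.75 at 41C. The second 41C library fell between the 37C libraries, and the change was -0.21 ± 0.13 (fold 0.862, edgeR adjusted p = 0.484). DYNC2H1 had 26.1, 23.8 and 17.6 CPM at 37C and 23.3, 22.6 and 20.6 at 41C, with a change of -0.02 ± 0.13.

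EVC anchors a complex at the base of the cilium that passes the signal of SMO on towards the GLI factors. The gene lies on chromosome 4 (5711197 to 5814305, plus strand, GRCh38). It had the highest log2 change of the 38, with 16.9, 17.5 and 18.6 CPM at 37C and 21.1, 17.9 and 23.9 at 41C. The 41C libraries 1 and 3 were above all 37C libraries and library 2 lay between them. The fold was 1.18, with a 95% interval of 1.02 to 1.38, and the change of 0.24 ± 0.10 did not pass (edgeR adjusted p = 0.301). Over 20 alternative fits its log2 change ran from 0.14 to 0.35, and its adjusted p, where one was given, from 0.0895 to 0.682.

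At the gate of the cilium, 0 of 5 genes passed, with a median log2 change of -0.05. CEP164, a distal appendage protein that docks the centriole to the membrane, had 42.6 ± 1.6 CPM at 37C and 41.0 ± 0.358 at 41C (SD, n = 3). TCTN1 and MKS1, of the transition zone's membrane module, had log2 changes of -0.05 ± 0.08 and -0.01 ± 0.09. RPGRIP1L, a transition zone scaffold, had 19.7, 20.7 and 18.03 CPM at 37C and 19.97, 17.9 and 17.2 at 41C. Its groups overlapped (log2 change -0.09 ± 0.09; edgeR adjusted p = 0.744). CEP290, the Y-link protein mutated in several ciliopathies, had the highest coefficient of variation of the 38 at 37C, while BBS5 had it at 41C (22.5%). CEP290 had 22.9, 14.9 and 12.2 CPM at 37C and 15.6, 20.5 and 15.4 at 41C, a coefficient of variation of 33.5% at 37C and 17.0% at 41C. A change of its message was not detectable against that spread (0.04 ± 0.25).

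Some of the counts may hold reads of a neighbour. In GENCODE 29, exons of 17 of the 38 genes overlap a gene on the opposite strand, which matters if strand was not used in counting, and exons of 5 overlap one on the same strand. The first set includes IFT80 with SMC4 (607 bases), EVC with CRMP1 (159) and CEP290 with C12orf29 (401). The second includes IFT80, BBS1 and BBS5, each overlapping a further protein-coding gene model, so their counts are uncertain.

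The spread between libraries of 1 group had a pattern of its own. Ranked by coefficient of variation at 37C, the genes down to 17.7% were CEP290, IFT81, IFT80, BBS10, DYNC2H1, IFT88, TTC21B, IFT74 and WDR35. Each was lowest at 37C in replicate 3, and each was highest there in replicate 1 except BBS10, with 15.4, 18.6 and 12.3 CPM in replicates 1, 2 and 3. The longest transcripts of the 38 genes had a median GC content of 41.9%, against 48.2% for all tested genes with a match. Among the 19 genes below that median, 37C replicate 3 was the lowest 37C library in 14, and 41C replicate 3 the lowest 41C library in 14. Among the 19 above it, these libraries were the lowest in 5 and 5. The summed level of the 19 AT-richer genes was 458.7, 442.6 and 381.4 CPM in 37C replicates 1, 2 and 3, and that of the other 19 was 547.6, 567.4 and 563.0. Across the 38 genes, the deviation of 37C replicate 3 from its group mean had a Spearman rho with GC content of 0.71, that of 41C replicate 3 one of 0.53, and that of 37C replicate 1 one of -0.53. These describe genes that share their libraries and are not independent. Over all tested genes the rho of the same 3 libraries was 0.51, 0.23 and -0.47, so the pattern was not limited to cilium genes. The change between the temperatures had a rho with GC content of 0.05 across the 38 genes. Its rho with gene length was 0.32 across the 38 and 0.25 over all tested genes. With a correction of each library for its trend on length, 0 of 38 passed and the median log2 change was -0.03. In that edgeR fit 0 of the 38 were higher and 1 lower at an unadjusted p under 0.05, and 1 and 1 with the replicate block added. With a correction of each library for its trend on GC content, added after the data had been seen, 0 of 38 genes passed and the median log2 change was -0.03.

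**Figure D3:**
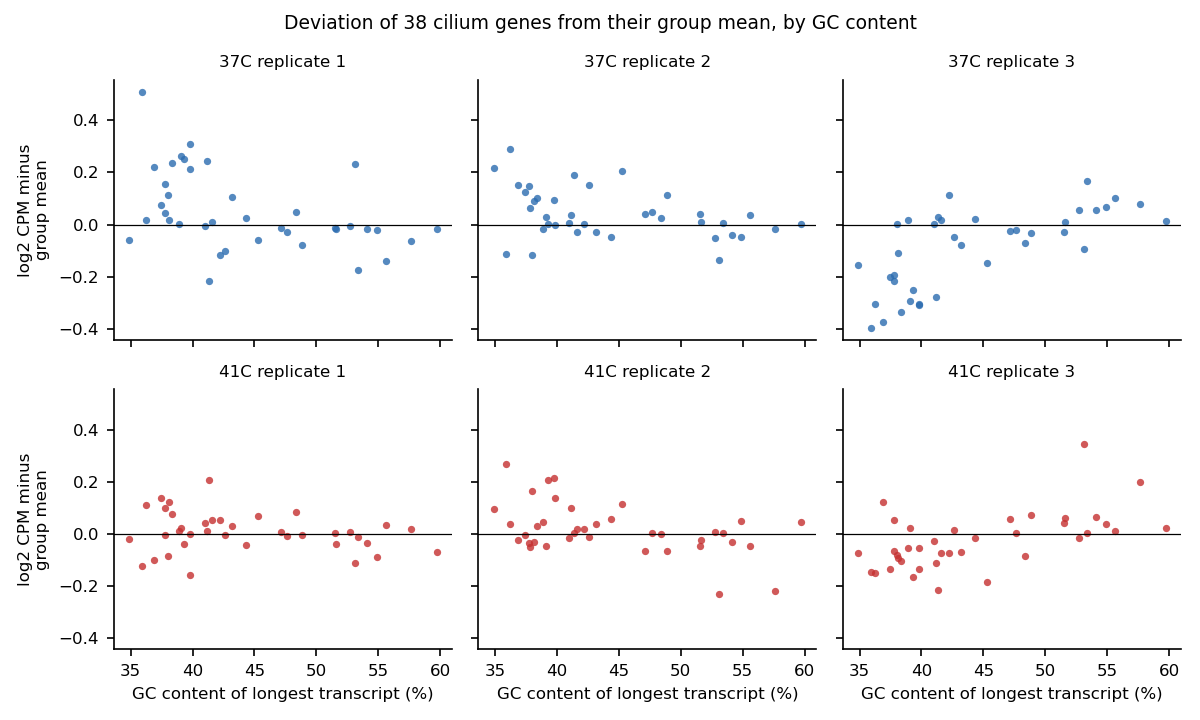
Deviation of each of the 38 cilium genes from its group mean (log2 CPM) against the GC content of its longest transcript, 1 panel per library, 37C in the upper row and 41C in the lower. Points slope upwards in replicate 3 of both groups (Spearman rho 0.71 and 0.53) and downwards in 37C replicate 1 (-0.53).

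Further genes of the organelle were read from lists of other IFT, BBS and motor genes, transition zone, basal body, ciliary membrane, disassembly, Hedgehog, RFX and motile-cilium genes. Of 15 tested IFT, BBS and motor genes outside the 38, 0 passed, 6 were positive and 9 negative, with a median log2 change of -0.07. At an unadjusted p under 0.05 in edgeR, 1 was higher (IQCE) and 3 were lower (HSPB11, DYNC2I2 and CCDC28B). The shares over all tested genes were 7.58% and 6.12%. The nearest was HSPB11, which encodes the IFT-B subunit IFT25. It had 62.4, 63.3 and 61.2 CPM at 37C and 54.9, 49.5 and 55.3 at 41C. All 41C libraries lay below all 37C libraries, without passing (log2 change -0.23 ± 0.06; edgeR adjusted p = 0.0894). It passed in 5 of 20 alternatives, among them the fit without 37C replicate 3 (edgeR adjusted p = 0.0126), and over the alternatives that gave one its adjusted p was 0.0126 to 0.420. DYNC2I2, a further dynein-2 gene at 120 FPKM, had 197.6, 214.9 and 224.3 CPM at 37C and 189.3, 192.6 and 192.9 at 41C. Its 41C libraries lay below all 37C libraries, without passing (log2 change -0.15 ± 0.05; edgeR adjusted p = 0.185). The dynein-2 gene DYNC2I1 had a log2 change of 0.01 ± 0.12.

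Of 21 further transition zone genes 0 passed, with a median of -0.02 and IQCB1 nearest (log2 change -0.13; edgeR adjusted p = 0.399). Of 24 basal body and initiation genes 0 passed, with a median of 0.04. Those with the smallest p were WDPCP, a planar polarity effector, at -0.32, and the membrane-shaping ATPase EHD3 at 0.44 (edgeR adjusted p = 0.325 for both). Of 13 ciliary membrane genes 0 passed, with a median of 0.08 and ARL2BP nearest (edgeR adjusted p = 0.457). Of 5 RFX genes 0 passed, with RFX1 nearest at -0.12 ± 0.09 (edgeR adjusted p = 0.581). RFX5 was at 32.6 FPKM, RFX7 at 5.86, RFX2 at 3.29, RFX1 at 3.16 and RFX3 at 0.340. Which of them act on cilium genes in these cells was not tested. Of 6 tested motile-cilium genes 0 passed, with a median of -0.18 and CCNO nearest (edgeR adjusted p = 0.308).

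The list for cilium disassembly held AURKA, NEDD9, HDAC6, KIF24, KIF2A, NEK2, PLK1, PLK4, TPX2 and BUB1B. Several of these, among them TPX2 and BUB1B, work in mitosis, so the list is not specific to the cilium. Among the 10 genes, 1 rose and 0 fell, where 0.821% of all tested genes were called higher and 0.265% lower. At an unadjusted p under 0.05 in edgeR, 1 of the 10 was higher and 4 were lower, against 7.58% and 6.12% of all tested genes. NEDD9, a scaffold that activates the kinase AURKA at the ciliary base and also works at focal adhesions, had 62.8, 65.6 and 71.5 CPM at 37C and 79.8, 81.5 and 78.5 at 41C. Each 41C library was above each 37C library, and NEDD9 rose 1.2-fold (log2 change 0.26 ± 0.06; edgeR adjusted p = 0.0427). The call was narrow: it held in 10 of 20 alternatives and ended without 37C replicate 1 (edgeR adjusted p = 0.101), 37C replicate 2 (0.288) or 41C replicates 1 (0.182), 2 (0.272) or 3 (0.121). AURKA itself had a log2 change of -0.12 ± 0.05, PLK1 one of -0.12 ± 0.05 and the tubulin deacetylase HDAC6 one of -0.23 ± 0.09 (edgeR adjusted p = 0.326, 0.296 and 0.280). The list had a median of -0.11.

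Hedgehog components that travel through the cilium did not pass, 0 of 9 tested. PTCH1 was at 7.12 FPKM, SUFU at 3.92, SMO at 3.28, GLI3 at 2.32 and GLI1 at 0.570. GLI1 had 139 counts over the 37C libraries and 140 over the 41C libraries, with a log2 change of -0.03 ± 0.22 (edgeR adjusted p = 0.974). GLI3, which can act as repressor or activator, was 0.31 ± 0.07 higher on the log2 scale without passing (edgeR adjusted p = 0.0547). The receptor PTCH1 was 0.20 ± 0.06 higher, also without passing (edgeR adjusted p = 0.115). GLI3 passed in 7 of 20 alternatives and PTCH1 in 3, among them the fit without 37C replicate 3 (edgeR adjusted p = 0.0197 for GLI3 and 0.0376 for PTCH1). Over the alternatives that gave one, the adjusted p ran from 0.00891 to 0.273 for GLI3 and from 0.018 to 0.483 for PTCH1. SUFU, which holds GLI proteins at rest, had a log2 change of -0.01 ± 0.09, and SMO one of -0.03 ± 0.11. KIF7, the kinesin of the ciliary tip, had 13 and 14 counts over the 37C and 41C libraries, and the ratio of 1.04 had a 95% interval, for counting error only, of 0.455 to 2.41. GLI2 had 0 and 2 counts, too few to compare.

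**Figure D4:**
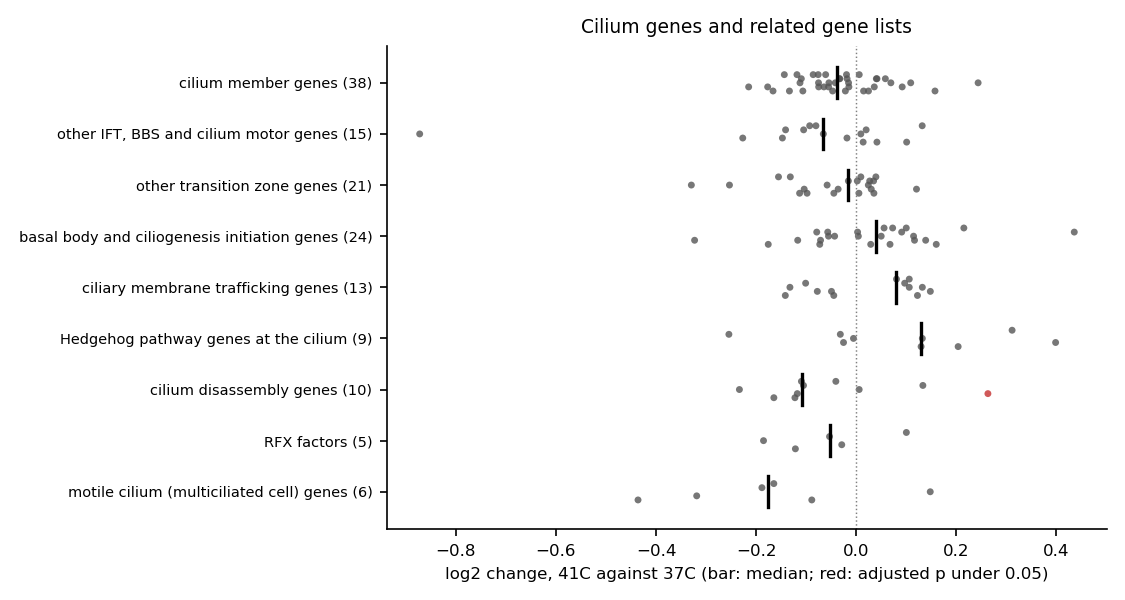
Log2 change at 41C against 37C of each tested gene (points) in the 38 cilium genes and 8 related lists, with the list median as a black bar; the number of genes tested stands after each name. Medians lie between -0.18 and 0.13, and NEDD9, in red, is the 1 gene with an adjusted p under 0.05.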

How the data were processed

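Poly(A) RNA was sequenced from 6 HaCaT libraries (mirVana RNA, TruSeq Stranded mRNA kit, per the labels' protocols). Per the submitters' processing notes, the tools were Trimmomatic 0.36 and HISAT2 and the build GRCh38.p13. For the counter, its annotation and its strand setting, the sources used here give nothing. The authors deposited raw counts per gene symbol and FPKM values, and each nonzero FPKM equalled count per gene length and library total within 0.01% (100% of values), so the FPKM carry the same measurement and gave gene lengths.

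Genes kept by filterByExpr (12056) were fitted with edgeR 4.0.16 (R 4.3.3, TMM, robust quasi-likelihood, two-sided, 41C against 37C, Benjamini-Hochberg adjustment over all tested genes, threshold 0.05). CPM are TMM-scaled, and log2 changes are ± SE. With 3 libraries against 3, exact permutation of a single gene has a smallest two-sided p of 0.1. DESeq2 1.42.0, limma 3.58.1 and other scalings, filters and corrections were alternatives. The procedure was tested on simulated data. GC content came from GENCODE 29, which matched 97.3% of symbols.

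Given in full were any gene past the threshold, the smallest p per subcomplex, the 5 highest and 5 lowest log2 changes and the 3 highest and 3 lowest FPKM. Others were named after their values were seen. The genes, lists and tests were chosen with earlier results of these data known.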

Additional observations from a re-analysis of the deposited data

How the results depend on the processing

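Over 20 alternatives, 0 of the 38 cilium genes were called higher, and 0 were called lower except for 1 (IFT80) without 37C replicate 3, so leaving out a library gave 0 to 1 lower. The median log2 change of the 38 stayed negative, from -0.06 to -0.03. In 19 of the 38 the sign of the change was the same in all 20 (7 positive, 12 negative), and the others changed sign in at least 1. The number of calls among all genes moved far more. It was 131 (99 higher, 32 lower) in the analysis reported, 217 with DESeq2, 284 with no filter, 426 with the GC correction, 11 and 40 with limma on log2(FPKM + 1) and log2(FPKM + 0.1), and 5 to 805 with a library left out. Upper-quartile scaling gave 57 higher and 53 lower. The cause was not tested. With the replicate number as a block the calls were 438, with the block and length correction 341, and with the block and GC correction 722, and 0 cilium genes passed in each. The numbers were not treated as pairs because the labels do not say what a replicate number shares. Same-numbered libraries correlated at 0.08, -0.02 and 0.08 in their deviations from the group means. Not every library correlated best with its own number, while replicate 3 of both groups had the upward slope on GC content given above. With 3 libraries per group, these correlations cannot decide whether the numbers are pairs. Counts of 60 to 168 per library in BBS5, BBS12 and WDR35 limit what can be seen there.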
